A study of Mus musculus with 5 samples.

Results

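The region examined here is the stretch of mouse chromosome 7 that starts just past the end of Pepd, runs through Cebpg and ends after Cebpa, at chr7:35046001-35122000 of mm10. It was read as 38 consecutive windows of 2 kb, taken by position. The interval itself was chosen with earlier results of these data known. Of the 38 windows, 35 are among the 29870 windows that at least 1 of 4 4C-seq libraries lists. The libraries came from 3T3-L1, an established mouse preadipocyte line. 3T3-L1-PRE, the preadipocytes, is the undifferentiated state, with 2 libraries. 3T3-L1-AD, the adipocytes, also with 2 libraries, is the state at day 7, after 48 h with dexamethasone at 2 µg/mL, IBMX at 0.5 mM and insulin at 10 µg/mL, followed by medium with insulin. Both states were grown in DMEM with fetal bovine serum and fixed with formaldehyde. The labels do not say whether replicates are separate cultures, so the spread between libraries, on which the p-values rest, may be technical. The cell state could not be checked against marker genes, because 4C-seq of genomic DNA measures no expression.

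Cebpa and Cebpg encode members of the C/EBP family, which bind DNA as dimers through a basic region and a leucine zipper. C/EBPα is a transcription factor of the adipogenic programme and is needed for the mature fat cell, where it works together with PPARγ. C/EBPγ is a short member of the family that pairs with other C/EBP and ATF proteins. Promoters contact distal DNA through chromatin loops. In 4C-seq, fixed chromatin is cut and religated, and a PCR from one bait site, the viewpoint, recovers whatever was ligated to it. The reads of a window thus count its ligation products with the viewpoint. Each library averages over a culture, so more cells with a contact and more frequent contact within each cell cannot be told apart.

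The viewpoint lies at the DpnII site at position 35117574, which is 1719 bp before the annotated start of Cebpa. Cebpa is annotated on the plus strand at chr7:35119293-35121928 and lies in the last 2 windows. Cebpg, on the minus strand at chr7:35046422-35056573, overlaps the first 6. Pepd, which encodes a peptidase that cleaves dipeptides with a C-terminal proline, ends at position 35044708, and 0 of the 38 windows overlap it. The other 8 annotated genes of the interval are noncoding or unclassified in GENCODE. Among them are the lincRNA Gm45096 at chr7:35057264-35066733, the lincRNA Gm35611 at chr7:35086836-35090842 and Gm45091, an antisense transcript at chr7:35118044-35119605 that overlaps the start of Cebpa.

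The reading primer is shown because it fixes the fragment from which all reads start, and the reverse primer because it closes that fragment on the side of the NlaIII site. The capitals mark the DpnII site.
Reading primer, plus strand, chr7:35117558-35117577: atctggcccagagagcGATC
Reverse primer, minus strand, chr7:35117178-35117198: ggggttcgtgagaaatgtccc
The viewpoint fragment reached back to the DpnII site at position 35116632, and its nearest NlaIII site was 402 bp from the viewpoint. Both primers matched chromosome 7 once, in the window at 35116001 to 35118000.

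That window was listed in 0 of 4 libraries. The 2 windows before it, at 35112001 to 35114000 and 35114001 to 35116000, were not listed in any library either, although the windows on both sides of this gap held 88261 to 300196 reads. The gap holds the longest DpnII fragment of the interval, of 3485 bp from position 35112307 to 35115792, and its 3 windows hold 1, 1 and 3 DpnII sites. These windows were counted as 0 in all sums, and are described here as not listed and not as free of contacts. The other 35 windows were listed in all 4 libraries.

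On chromosome 7, the listed windows held 7667263 and 13715191 reads in replicates 1 and 2 of preadipocytes, and 4901863 and 7549822 reads in replicates 1 and 2 of adipocytes. The chromosome had 3588 and 9470 listed windows in preadipocytes and 1043 and 2048 in adipocytes. A listed window had at least 13 and 11 reads in the preadipocyte replicates, and at least 2 in either adipocyte replicate. All shares below are percentages of these chromosome 7 reads. At these depths every 95% Wilson interval of a share was within 0.042 percentage points of it, and these intervals cover counting error only, because reads copied by PCR and carrying no molecular identifier cannot be taken as separate molecules.

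The interval took a larger share of the chromosome 7 reads in adipocytes than in preadipocytes. It held 22.1% and 21.1% in the preadipocyte replicates and 34.3% in both adipocyte replicates. The means were 21.6% ± 0.691 and 34.3% ± 0.00347 (SD, n = 2 each), a ratio of 1.59, and the states did not overlap (two-sided exact permutation test, p = 0.333). This p is the smallest that 2 libraries against 2 can give, so no share can pass a threshold of 0.05 in this test.

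Windows within 10 kb of a viewpoint collect self-ligated and undigested product, and 8 windows of the interval overlap that range. Without them, the remaining 30 windows held 14.8% and 15.1% of the reads in the preadipocyte replicates and 21.4% and 22.1% in the adipocyte replicates. The means were 14.9% ± 0.213 and 21.8% ± 0.49 (SD, n = 2 each), and the ratio fell to 1.46, again without overlap between the states (two-sided exact permutation test, p = 0.333). The 8 windows close to the viewpoint, of which 5 were listed, held 7.32% and 6.05% in preadipocytes and 12.9% and 12.2% in adipocytes, a ratio of 1.88. Distant windows of chromosome 7 enter the denominator, and fewer of them were listed in adipocytes. With the reads within 1 Mb of the viewpoint as the denominator, the mean shares of the 30 windows were 20.5% and 26.2%, a ratio of 1.28.

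The 30 windows at the same distances on the other side of the viewpoint, at chr7:35128001-35188000, differed less between the states. They held 11.3% and 11.4% in preadipocytes and 13.7% and 12.5% in adipocytes, a ratio of 1.15. The reads of the 30 interval windows outside 10 kb were divided by those of the other side. This gave 1.30 and 1.33 in the preadipocyte replicates and 1.57 and 1.76 in the adipocyte replicates. This quotient does not depend on the chromosome 7 total, and both adipocyte values were above both preadipocyte values (p = 0.333 in the same two-sided exact permutation test). The 38 windows just before the interval, at chr7:34970001-35046000 mostly in the body of Pepd, held 9.70% and 8.57% in preadipocytes and 9.98% and 12.9% in adipocytes. Their ratio was 1.25, and the adipocyte replicates differed from each other by more than the state means did.

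By annotation, the 6 windows over Cebpg held 2.11% and 2.31% of the chromosome 7 reads in preadipocytes and 4.53% and 3.73% in adipocytes. The means of 2.21% ± 0.141 and 4.13% ± 0.571 (SD, n = 2 each) gave a ratio of 1.87. The 3 windows over Cebpa or the viewpoint, of which 2 were listed, held 2.81% and 1.91% in preadipocytes and 4.62% and 3.05% in adipocytes, a ratio of 1.62. All 3 lie within 10 kb of the viewpoint, where self-ligated and undigested product collects. Here the replicates of each state lay far apart. Without 3T3-L1-AD replicate 1 the difference fell from 1.47 to 0.685 percentage points, and without 3T3-L1-AD replicate 2 it rose to 2.26. The 29 windows between the genes, of which 27 were listed, held 17.2% and 16.9% in preadipocytes and 25.2% and 27.6% in adipocytes, a ratio of 1.55. In each of these 3 classes both adipocyte libraries were above both preadipocyte libraries, and each two-sided exact permutation test gave p = 0.333, the smallest possible. For Cebpa the states overlapped with all listed reads or the reads within 1 Mb as the denominator, and with the deposited RPMs (p = 0.667 in each exact test).

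Single windows were compared in normalised reads, the reads per 1000000 chromosome 7 reads. The window with the most reads lay between Cebpg and the viewpoint in every library. It was 35108001 to 35110000 in replicate 1 of both states and the adjacent 35110001 to 35112000 in replicate 2. The window at 35110001 had 16754 and 17457 in preadipocytes and 36323 and 39762 in adipocytes. Its neighbour at 35108001 had 20368 and 16069 in preadipocytes and 36467 and 36067 in adipocytes. Both lie within 10 kb of the viewpoint, overlap no annotated gene, and showed no overlap between the states. In edgeR's quasi-likelihood test, the log2 fold changes of adipocytes over preadipocytes were 1.15 ± 0.122 and 0.99 ± 0.123 (SE). The test gave FDR = 1.52e-17 and FDR = 1.03e-12. It draws the variance of a window in part from other windows. An SE or FDR thus does not measure the agreement of a window's own replicates alone.

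The window at 35118001 to 35120000 holds the start of Cebpa and the antisense transcript Gm45091. It had 11511 and 8299 normalised reads in preadipocytes and 31839 and 19469 in adipocytes. The adipocyte replicates differed widely, but the lower of them was still above both preadipocyte libraries, and the log2 fold change was 1.37 ± 0.178 (SE, FDR = 9.22e-12). The next and last window, at 35120001 to 35122000, holds the rest of Cebpa up to its annotated end. It had 16614 and 10817 in preadipocytes and 14394 and 11003 in adipocytes, so the states overlapped. The log2 fold change was −0.11 ± 0.223 (SE, FDR = 0.716), and it was 0.36 with TMM, a normalization that takes most windows as unchanged. The adjacent windows over Cebpa thus gave different values, and the difference between them was not tested. Both lie within 10 kb of the viewpoint, so self-ligated and undigested product can be among their reads.

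At the other end, the first window, 35046001 to 35048000, overlaps the last exon of the longest annotated Cebpg transcript. It had 1927 and 2530 normalised reads in preadipocytes and 6596 and 2902 in adipocytes, with a log2 fold change of 1.09 ± 0.656 (SE, FDR = 0.137). This was 0.38 without 3T3-L1-AD replicate 1, and 1.57 without 3T3-L1-AD replicate 2, where it passed the threshold (FDR = 0.00224). The window at 35056001 to 35058000, which holds the start of Cebpg, had 3885 and 3710 in preadipocytes and 5968 and 3422 in adipocytes. The states overlapped there, with a log2 fold change of 0.31 ± 0.557 (SE, FDR = 0.689) that was −0.15 without 3T3-L1-AD replicate 1. The gene body between these ends had the highest ratio of the 30 windows outside 10 kb. At 35054001 to 35056000 the values were 1200 and 3342 in preadipocytes and 5074 and 7825 in adipocytes, a ratio of 2.84, with a log2 fold change of 1.51 ± 0.557 (SE, FDR = 0.0197) that did not pass the threshold of 0.01. It did pass without 3T3-L1-AD replicate 1 (FDR = 5.39e-06), and leaving out replicate 1 or replicate 2 of the preadipocytes gave log2 fold changes of 0.95 and 2.43. Over Cebpg as a whole, all 6 windows had fold changes above 0. In 4 of them both adipocyte libraries were higher than both preadipocyte libraries, as in 15.5% of all 1998 windows tested, and the lowest FDR among them was 0.016 in edgeR.

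Between the genes, the windows at 35100001 and 35060001 had the most normalised reads outside 10 kb as a mean over the 4 libraries. The first led in all 4, while the second was not next in 1 library of each state. The window at 35100001 to 35102000, which holds the rRNA gene Gm22535, had 13868 and 12791 in preadipocytes and 20181 and 20584 in adipocytes. The window at 35060001 to 35062000, in an intron of Gm45096, had 10342 and 8510 in preadipocytes and 13078 and 18200 in adipocytes. In both, the states did not overlap, and the log2 fold changes of 0.61 ± 0.183 (SE, FDR = 0.00781) and 0.73 ± 0.234 (SE, FDR = 0.00939) passed the threshold. Both calls were lost with TMM, at FDR = 0.0164 and FDR = 0.0163, although the log2 fold changes rose to 1.11 and 1.30. Both were also lost without 3T3-L1-PRE replicate 1, with log2 fold changes of 0.67 and 0.88, and without 3T3-L1-PRE replicate 2, with 0.56 and 0.60. The call at 35060001 was lost without 3T3-L1-AD replicate 2 as well, with a log2 fold change of 0.47 (FDR = 0.0544).

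The lowest ratios outside 10 kb were those of the windows at 35072001 and 35088001. At 35072001 to 35074000, which overlaps no gene, the values were 4254 and 4202 in preadipocytes and 2847 and 3711 in adipocytes, a ratio of 0.776. This was the only window of the 35 in which both adipocyte libraries were below both preadipocyte libraries, and its log2 fold change of −0.37 ± 0.613 (SE, FDR = 0.657) became 0.17 with TMM. It was −0.19 without 3T3-L1-AD replicate 1 and −0.57 without replicate 2 of that state. At 35088001 to 35090000, in an intron of Gm35611, the values were 3508 and 2294 in preadipocytes and 1976 and 3155 in adipocytes. The ratio there was 0.884 with overlapping states, and the log2 fold change of −0.18 became 0.44 with TMM. The adjacent window at 35090001 to 35092000 had the second highest ratio outside 10 kb, 2.34, which came from a single library. Its values were 1105 and 1672 in preadipocytes and 1015 and 5472 in adipocytes, and without 3T3-L1-AD replicate 2 its log2 fold change went from 1.22 to −0.45. Without 3T3-L1-AD replicate 1 it was 1.98 and passed the threshold (FDR = 4.46e-05).

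The 23 listed windows not named above had between 451 and 15845 normalised reads in a library. Their ratios ran from 0.908 to 2.31, and their FDRs from 0.0143 to 0.984. The states did not overlap in 11 of them, all higher in adipocytes, and overlapped in 12. Of all windows tested, 15.5% were higher and 64.1% lower in adipocytes without overlap. The 64.1% include 906 windows listed in neither adipocyte library, and the 15.5% include 221 listed in neither preadipocyte library.

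The test covered all windows listed in both replicates of either state. At an FDR of at most 0.01, it called 5 of 35 interval windows (14.3%) higher in adipocytes, against 8.21% of the 1998 tested. Of the 1998, 221 were listed in neither preadipocyte library, whereas the 35 interval windows were listed in all 4 libraries. The shares called higher over all windows thus also draw on windows unlike those of the interval. Among the 737 tested windows within 1 Mb of the viewpoint, 8 (1.09%) were called higher, the 5 of the interval and 3 of the 38 windows just before it, of which 1 was called lower. With TMM, 3 interval windows (8.57%) were called higher, against 7.21% of all windows tested, and with all listed reads as library size 3 as well, against 8.06%. With RLE, a normalization that scales to the median window, 6 (17.1%) were called higher, against 6.41%. Of the 5 interval calls, 3 were within 10 kb of the viewpoint. The count was 3 without either preadipocyte library, where 0.150% of all windows tested were called higher. It was 15 without 3T3-L1-AD replicate 1, against 12.2%, and 9 without 3T3-L1-AD replicate 2, against 1.65%. The windows at 35108001, 35110001 and 35118001 passed the threshold in all 4 of these fits and with TMM.

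In the other direction, edgeR called 0 of 35 interval windows lower in adipocytes, against 13.9% of all windows tested and 2.71% of those within 1 Mb, a share at which 0 of 35 is no contrast. At an unadjusted p under 0.05, 0 interval windows were lower and 15 (42.9%) were higher, against 54.0% and 12.3% of all windows tested. DESeq2 also called 0 interval windows lower, and 57.5% of all windows tested. Of the 1998 windows tested, 906 were listed in neither adipocyte library, whereas the 35 interval windows were listed in all 4 libraries. The shares called lower over all windows thus draw on windows unlike those of the interval, and nothing is concluded from the difference. Over all windows tested, the calls split into 164 higher and 277 lower, and into 144 and 130 with TMM and 128 and 1 with RLE, which scales to the median window.

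Both adipocyte libraries were above both preadipocyte libraries in 18 of the 35 windows (51.4%), against 15.5% of all windows tested and 8.14% of those within 1 Mb. Both were below in 1 window (2.86%), against 64.1% and 50.2%. At the same distances on the other side of the viewpoint, 29 windows were tested. Both adipocyte libraries were above in 8 of them and below in 2, against 14 and 1 of the 30 interval windows outside 10 kb. The 64.1% include windows listed in neither adipocyte library, and the 15.5% include windows listed in neither preadipocyte library. The 35 interval windows were listed in all 4 libraries. The median log2 fold change was 0.58 in the interval and −8.72 over all windows tested, of which 906 were listed in neither adipocyte library. Over the 403 windows listed in all 4 libraries the median was −0.07. The fold change was above 0 in 30 of the 35 interval windows, and in 47.9% of these 403. TMM raised the median to 1.06 in the interval and to −8.24 over all windows tested, by different amounts in single windows, and 35 of 35 interval windows were then above 0. With all listed reads as library size, 27 were above 0.

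Significant interaction sites (SISs), windows with more reads than r3Cseq's background at their distance, were more numerous in preadipocytes when replicates were combined. At a q-value of at most 0.05 after combining the replicates, 26 of the 35 windows (74.3%) were SISs in preadipocytes. The share was 3.33% of the 1710 windows listed in both preadipocyte replicates, and 7.85% of the 726 within 1 Mb of the viewpoint. In adipocytes 12 windows (34.3%) were SISs, against 2.89% of 691, and 4.98% of the 402 within 1 Mb. All 12 were also SISs in preadipocytes. The difference between the states was not tested, and the counts followed the deeper library of each state. Alone, 3T3-L1-PRE replicates 1 and 2 gave 10 and 26, at 7667263 and 13715191 chromosome 7 reads. Alone, 3T3-L1-AD replicates 1 and 2 gave 5 and 11, at 4901863 and 7549822. At similar depth, replicate 1 of preadipocytes and replicate 2 of adipocytes thus gave similar counts. The 5 listed windows within 10 kb of the viewpoint were SISs in both states. Over Cebpg, 3 of 6 windows were SISs in preadipocytes and 0 in adipocytes, while their share of the reads was higher in adipocytes. The SIS call sets each window against its own library, whereas the share compares libraries.

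The windows of the interval ranked similarly in all libraries. Over the 35 windows, which share libraries and neighbours, Pearson's r of log2 normalised reads was 0.898 between the preadipocyte replicates and 0.751 between the adipocyte replicates. Between libraries of different states it was 0.779 to 0.844, so the adipocyte replicates were less alike than libraries across the states. The top 5 windows held 35.8% and 31.8% of the interval's reads in preadipocytes and 40.5% and 39.0% in adipocytes.

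Reads in 4C-seq start at DpnII sites, and the interval holds 165 of them, with 1 to 9 per listed window. The 7 windows with 7 to 9 sites had medians of 9599 and 8510 normalised reads in preadipocytes and 13078 and 15491 in adipocytes. The 4 windows with 1 or 2 sites had medians of 2906 and 2570 in preadipocytes and 5579 and 2614 in adipocytes. The windows between did not follow this order in every library, as the 9 with 5 or 6 sites had medians of 4580 and 6486 in replicate 1 of the preadipocytes and of the adipocytes, below the 5257 and 8119 of the 15 with 3 or 4. Over the 35 windows, Pearson's r between the number of sites and log2 normalised reads was 0.260 and 0.466 in preadipocytes and 0.320 and 0.482 in adipocytes. The part of the sites in these levels was not tested. With the log2 fold change, r was 0.180.

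The promoters of the 2 genes differ in these sites. They are shown as the 250 bases before each start in RefSeq's GRCm38.p6 table, with DpnII sites (GATC, the same on both strands) in capitals.
Cebpa promoter, plus strand, chr7:35119043-35119292: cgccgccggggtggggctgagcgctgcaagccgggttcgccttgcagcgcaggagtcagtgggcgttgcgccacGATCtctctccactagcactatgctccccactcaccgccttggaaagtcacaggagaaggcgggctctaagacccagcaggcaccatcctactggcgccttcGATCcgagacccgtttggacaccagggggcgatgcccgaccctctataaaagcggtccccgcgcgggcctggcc
Cebpg promoter, minus strand, chr7:35056567-35056816: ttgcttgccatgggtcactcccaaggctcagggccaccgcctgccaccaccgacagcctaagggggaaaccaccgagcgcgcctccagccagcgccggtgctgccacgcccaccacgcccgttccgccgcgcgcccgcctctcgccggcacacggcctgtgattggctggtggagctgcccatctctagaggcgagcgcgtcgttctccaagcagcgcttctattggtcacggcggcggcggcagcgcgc
The Cebpa promoter has 2 sites, at positions 35119117 and 35119219, inside the window at 35118001 that was called higher in adipocytes. The Cebpg promoter has 0, so a read over it can only start at a site outside these 250 bases, and its window at 35056001 has 2 in all. Of 32851 promoters of this length in the table, 41.9% hold at least 1 site and 10.9% at least 2.

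Of the study's 3C-qPCR primers around Cebpa, 3 matched within the interval. They are shown to place that assay, whose values are not used here, on the windows. Their positions are those of the sequence match to GRCm38.p6, and for F4 and F5 they differ from the positions in the study's primer list.
Primer F3, chr7:35077398-35077417: tggacagcaaatagggagga
Primer F4, chr7:35097460-35097479: agatttcctccacgacagca
Primer F5, chr7:35121309-35121328: cgctgttgctgaaggaactt
The window of F3, at 35076001 to 35078000, had 451 and 1278 normalised reads in preadipocytes and 2852 and 1019 in adipocytes. It had the fewest reads of the listed windows of the interval in 3 of the 4 libraries, and the states overlapped. The window of F4, at 35096001 to 35098000, had 3070 and 1942 in preadipocytes and 5468 and 5803 in adipocytes. The states did not overlap there, and the log2 fold change of 1.17 ± 0.583 (SE, FDR = 0.0691) did not pass the threshold. F5 lies in the last window, described above.

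Contacts with other C/EBP genes were looked for in the windows over Cebpb, Cebpd, Cebpe and Ddit3 and over Cebpz, which shares the name, all on other chromosomes, and contacts with adipogenic genes in those over Pparg, Srebf1, Fabp4, Adipoq, Lpl and Slc2a4. Of these 11 genes, 1 had a listed window. It was Pparg, the partner of C/EBPα in adipogenesis, with 3 reads in 1 window of 3T3-L1-AD replicate 1. None of the windows over the 11 genes met the condition for the test. An unlisted window can hold reads below the listing limit, so these values do not show that contacts are absent.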

How the data were processed

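Libraries were grouped by the state in their titles, which call them mRNA-Seq, although the other labels describe 4C-seq of genomic DNA. The authors took reads with the reading primer, mapped them to mm10 with bowtie2 in pipe4C, and deposited the read count of each 2-kb window from r3Cseq, not normalized. A signal called RPMs, which the authors had normalized in r3Cseq, is not proportional to reads and served as an alternative. The deposited p-value and q-value were computed by the authors per library. The iWAT library was not analysed here.

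Windows absent from a library's list counted as 0. Windows overlapping 10 kb on either side of the viewpoint were left out where stated. Windows listed in both replicates of either state were tested with edgeR's quasi-likelihood test, chromosome 7 reads as library size and Benjamini-Hochberg adjustment over all 1998. SISs combined the deposited p-values of the replicates by Fisher's method, with Benjamini-Hochberg adjustment. Genes are from GENCODE vM21, and primers were matched to GRCm38.p6, which is mm10. A window without a call is not shown to be unchanged. Each state had 2 libraries, and SEs of log2 fold changes in the interval ran from 0.122 at 35110001 to 1.27 at 35076001. The common dispersion over all windows tested was 1.90. DESeq2 counts are given for comparison only.

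Windows named were the first and last, those with the viewpoint and the starts of Cebpa and Cebpg, the top window of each library, those called, and outside 10 kb the 2 highest and 2 lowest ratios and the 2 with the most reads. Windows of the 3C primers were added. The interval and lists were chosen with earlier results of these data known. Alternatives were other denominators, exclusions, normalizations, tested windows, thresholds and DESeq2, a replicate block, and each library left out. The tools were Python 3.11.15, numpy 2.4.6, pandas 2.3.3, scipy 1.17.1, R 4.3.3, edgeR 4.0.16 and DESeq2 1.42.0.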

Additional observations from a re-analysis of the deposited data

How the results depend on the processing

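The interval's share stayed higher in 3T3-L1-AD under all 11 alternatives for all windows, with differences of 5.593 to 16.753 percentage points, and under all 14 without the windows near the viewpoint, with 4.131 to 11.251. The lowest came from the deposited RPMs and from all listed reads as denominator. Each class kept its direction under 11 alternatives, but over Cebpa the states overlapped under 3 of them (exact p = 0.667). The smallest exact p that 2 libraries against 2 allow is 0.333, so these tests say nothing about stability.

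The 5 interval windows called higher became 3 with TMM and 3 with all listed reads as library size. These shares were near those over all windows tested, of which 221 were listed in neither preadipocyte library. The calls became 3 over windows listed in at least 2 libraries (0.0786% of all tested there) and 3 over chromosome 7 within 1 Mb (0.543%). The calls became 2 where a minimum of 100 reads in 2 or more libraries was set (0.119%). They became 13 and 15 with DESeq2, with chromosome 7 size factors and its own, against 11.6% and 12.4% of all windows tested, and 13 at an FDR of 0.05, against 241 of 1998. With RLE there were 6 (17.1%), against 6.41% of all windows tested. With only chromosome 7 windows tested there were 5 (14.3%), against 1.09%. Leaving out a library gave 3 to 15. The count called lower was 0 in all of these, but over all windows tested it was also 0 with windows listed in at least 2 libraries and without 3T3-L1-PRE replicate 2, and 1 within 1 Mb. The cause was not tested. SISs in both replicates at the deposited q-value numbered 10 in preadipocytes and 5 in adipocytes, and leaving out a replicate gave 10 to 26 and 5 to 11.

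With TMM, the log2 fold changes at 35072001, 35088001 and 35120001 turned to 0.17, 0.44 and 0.36. Leaving out a library gave 0.38 to 1.57 at 35046001, 0.95 to 2.43 at 35054001, −0.15 to 0.65 at 35056001, −0.55 to 0.16 at 35088001, −0.45 to 1.98 at 35090001 and −0.39 to 0.23 at 35120001. With a lone library in a state, that library is assumed to vary like the others.

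The labels do not say that replicate numbers pair the libraries, and the deviations of same-numbered libraries from their state means correlated at −0.00088. With a replicate block, 4 windows were called higher and 0 lower, of 7 and 0 over all 1998.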
